A study of Mus musculus with 11 samples.

Results

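The 10 genes of the Wnt/β-catenin pathway, Bcl9, Bcl9l, Ctnnb1, Tcf7l1, Tcf7l2, Axin2, Wnt4, Wnt10a, Fzd6 and Lrp6, were followed in the gingival epithelium of mice whose Langerhans cells (LCs) had been targeted around weaning. These 10 genes are 10 of the 19170 genes with values, and they were chosen by their place in the pathway and with measured values of the same comparison known, since Bcl9 was the member that differed most between the groups. The tissue came from langerin-DTR mice, in which the langerin gene drives a receptor for diphtheria toxin (DT), so that the toxin kills langerin-positive cells. All 11 mice carried this receptor, and the methods describe the mice as male. Injections on postnatal days 17, 24 and 31 held PBS for 5 mice and DT for 6 mice, and epithelium was taken at 8 weeks of age. Every comparison below is therefore of adult epithelium some weeks after the last injection. The model is limited to langerin-positive cells, which need not all be LCs, and no group of mice without the receptor was given DT here. The paper's reporting summary states that mice were housed together in experiments with transgenic mice, without naming which of them shared a cage. No source used here says which mice shared litters.

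The values are normalized counts, that is, reads per gene divided by a size factor for each mouse. In every mouse the low values, up to 200 reads, were within 0.1 of whole multiples of a fixed step, the worth of 1 read, and the totals in these steps lay between 17509327 and 24325513 reads per mouse. Keratinocyte genes dominated every library, and the 8 keratinocyte markers together held 2350000 to 2410000 normalized counts after PBS and 2360000 to 2590000 after DT. Of other cell types, the summed fibroblast markers lay between 1110 and 1590 normalized counts over all mice, and the melanocyte markers Tyrp1 and Mlana and the Schwann cell marker Sox10 had no value. Cd207, which encodes langerin, was between 10.0 and 43.0 normalized counts after PBS and between 15.8 and 21.6 after DT. On the first principal component PBS 3 and PBS 5 lay far from PBS 1, PBS 2 and PBS 4, with scores of 17.2 and 20.9 against -13.0 to -11.9, and they also had the highest Cd207 (32.2 and 43.0 normalized counts) and the highest Odam (2205.7 and 2768.9). Odam marks the junctional epithelium that attaches the gingiva to the tooth. Results that rest on these mice are therefore also given without them. In bulk tissue, fewer cells of a type and less RNA per cell cannot be told apart.

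Wnt ligands are secreted proteins that bind a Frizzled receptor together with the co-receptor LRP5 or LRP6. In their absence a destruction complex built on Axin and APC marks β-catenin for degradation, and in their presence β-catenin accumulates, enters the nucleus and binds TCF/LEF factors on DNA. BCL9 or BCL9L then links β-catenin to Pygopus proteins, which helps to activate target genes such as Axin2, itself a brake on the pathway. In stratified epithelia, oral epithelium included, this pathway is known for its part in maintaining basal progenitor cells.

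After DT, the transcript of the β-catenin co-activator Bcl9 was lower in all 6 mice than in any PBS-treated mouse, at a fitted ratio of 0.771. Its paralog Bcl9l, the β-catenin partners Tcf7l1 and Tcf7l2 and the co-receptor Lrp6 had lower means after DT without passing the test, and β-catenin itself, the feedback gene Axin2, the ligands Wnt4 and Wnt10a and the receptor Fzd6 had fitted ratios of DT to PBS between 1.02 and 1.06. By limma on log2(normalized count + 1), 1 of the 10 genes had an adjusted p under 0.1, where 0.558% of all 19170 genes did, 0.245% of them lower and 0.313% higher after DT. An unadjusted p under 0.05 was found for 3 of the 10 genes, Bcl9, Bcl9l and Tcf7l2, and for 11.5% of all genes. The groups did not overlap for 1 of the 10 genes, Bcl9, which was lower after DT. Among the 13477 genes with mean counts of 10 or more 0.883% were lower after DT without overlap. The share of genes higher after DT without overlap was not counted. Because this comparison was known when the genes were chosen, these counts describe the genes and test nothing. The log2 fold changes of the 10 genes (log2 ratios of DT to PBS on the scale of log2(normalized count + 1), which understates changes of low genes) were negative for 5 and positive for 5, with a median of -0.041, beside a median of 0.002 over all genes with mean counts of 10 or more. All 10 genes passed that minimum, with means between 227.5 and 16015.4 normalized counts, whereas the shares of all 19170 genes include genes below it.

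**Figure D1:**
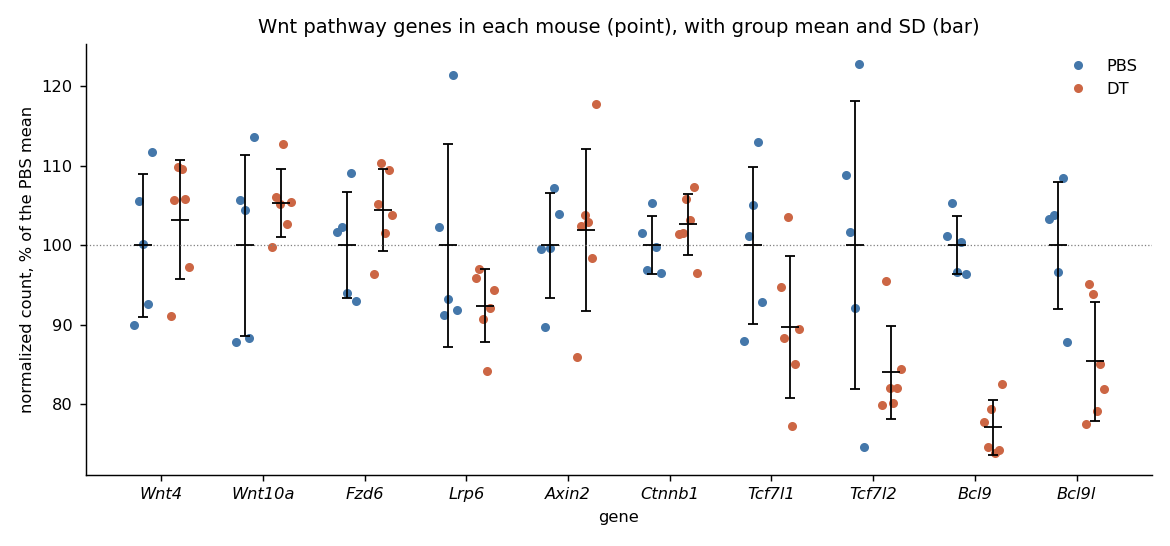
Normalized counts of the 10 genes as a percentage of the mean after PBS (vertical axis), with a point for each of the 5 PBS-treated and 6 DT-treated mice and a black bar for the group mean and SD. Bcl9 alone of these genes shows no overlap between the groups, while the DT-treated mice lie inside the PBS range for Tcf7l2, Wnt4 and Wnt10a.

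The promoters of 3 genes are shown because they carry the contrast of this pathway: Bcl9, which was lower after DT, Fzd10, a Frizzled receptor that was the other gene of the pathway past the threshold and was higher, and Axin2, the target gene most used as a readout of β-catenin activity. Sequences run 5′ to 3′ from 250 bases before to 50 bases after a transcript start in RefSeq on GRCm38.p6, and capitals mark GGGCGG or its reverse complement CCGCCC, the GC box bound by Sp1-type factors. The windows are chr3:97227315-97227614 on the minus strand for Bcl9, chr5:128600856-128601155 on the plus strand for Fzd10 and chr11:108920099-108920398 on the plus strand for Axin2. The Bcl9 window lies within the annotated gene, whose longest models start farther upstream.
Bcl9: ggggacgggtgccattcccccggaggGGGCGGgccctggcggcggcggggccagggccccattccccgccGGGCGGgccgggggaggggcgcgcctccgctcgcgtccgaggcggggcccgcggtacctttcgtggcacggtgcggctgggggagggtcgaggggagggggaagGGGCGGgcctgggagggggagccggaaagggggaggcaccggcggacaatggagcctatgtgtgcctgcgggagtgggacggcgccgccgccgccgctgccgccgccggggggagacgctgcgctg
Fzd10: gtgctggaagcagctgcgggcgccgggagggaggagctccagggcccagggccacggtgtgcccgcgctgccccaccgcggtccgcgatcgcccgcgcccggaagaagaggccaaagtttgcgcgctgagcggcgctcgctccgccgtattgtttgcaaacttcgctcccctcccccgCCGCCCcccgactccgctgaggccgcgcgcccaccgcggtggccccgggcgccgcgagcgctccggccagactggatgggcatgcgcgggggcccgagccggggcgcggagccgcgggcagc
Axin2: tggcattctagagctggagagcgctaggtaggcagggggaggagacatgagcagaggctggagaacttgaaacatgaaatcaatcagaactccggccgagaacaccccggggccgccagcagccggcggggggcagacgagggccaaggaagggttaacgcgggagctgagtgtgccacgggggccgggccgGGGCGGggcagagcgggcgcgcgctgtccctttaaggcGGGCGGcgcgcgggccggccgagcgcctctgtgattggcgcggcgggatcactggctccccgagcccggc

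The GC box occurred 3 times in the Bcl9 window, 2 times in that of Axin2 and 1 time in that of Fzd10. The GC content of these windows was 80.7% for Bcl9, 77.7% for Fzd10 and 70.0% for Axin2. RefSeq windows were at hand for 6 of the 10 genes (Bcl9, Wnt4, Tcf7l1, Ctnnb1, Axin2 and Tcf7l2), with 8 windows in all. The GC box was in 7 of the 8, against 35.7% of all 32851 windows. Those 7 windows had a GC content of 70.0% to 84.3%, and the other, a window of Tcf7l2, had 42.0%. The GC content of all windows was not counted, and the 2 windows of Ctnnb1 overlap. The core CTTTGA of the TCF/LEF motif, searched on both strands as CTTTGA or TCAAAG, was in 0 of the 8 and in 16.0% of all windows. These are counts of letters in short windows, and the lack of a match says only that these letters are not there.

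Among the ligands, Wnt4 was the more abundant. Wnt4 (chromosome 4, 137277489 to 137299726 on the plus strand, GRCm38) encodes a ligand that epithelial cells secrete, and it had 5048.9, 5927.8, 5619.4, 5197.1 and 6271.3 normalized counts from PBS 1 to PBS 5. After DT its lowest, median and highest values were 5113.3, 5932.6 and 6165.8, all inside the PBS range. Its log2 ratio of DT to PBS was 0.05 (SE 0.07, adjusted p by limma = 0.839). Wnt10a (chromosome 1, 74791516 to 74804179 on the plus strand) encodes a ligand needed for teeth, hair and other ectodermal structures. It had 554.4, 666.6, 658.8, 557.3 and 716.6 normalized counts across PBS 1 to PBS 5, and 629.3, 664.4 and 710.7 as the lowest, median and highest after DT. The DT-treated mice again lay inside the PBS range, and the log2 ratio of DT to PBS was 0.08 (SE 0.07, adjusted p by limma = 0.704). PBS 5 was the highest PBS-treated mouse for both ligands, and PBS 1 the lowest.

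On a list of Wnt pathway genes sorted by role, 13 of 19 ligands had values and 0 passed the threshold by limma, with 0 at an unadjusted p under 0.05. The 12 ligands with mean counts of 10 or more had 6 positive and 6 negative log2 fold changes. The smallest p belonged to Wnt5b, a ligand that mostly acts without β-catenin, at 49.0 ± 12.7 normalized counts (SD, n = 5) in the PBS group and 61.8 ± 10.2 (SD, n = 6) in the DT group, with a limma adjusted p of 0.455. Wnt3a, a ligand that classically activates β-catenin, followed with 112 ± 20.8 and 129 ± 17.3 normalized counts (limma adjusted p = 0.573). Porcn and Wls, which modify and export Wnt proteins, had log2 fold changes of -0.15 and 0.03 (limma adjusted p = 0.766 and 0.87). The value of Porcn moved with the mice included, at -0.05 without PBS 4 and -0.42 without PBS 3 and PBS 5 (limma adjusted p = 0.0531).

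For the receptors, the values of Fzd6 and Lrp6 overlapped between the groups, and Fzd10, a receptor gene outside the 10, was higher after DT. Fzd6 (chromosome 15, 39006034 to 39038188 on the plus strand) encodes a Frizzled receptor also known from planar cell polarity, the alignment of cells and hairs within an epithelium. It had 2048.1, 2061.1, 1892.9, 2197.4 and 1872.9 normalized counts across PBS 1 to PBS 5, and after DT its lowest, median and highest values were 1942.9, 2105.2 and 2222.1. PBS 3 and PBS 5 were the lowest of all 11 mice for Fzd6. Its log2 ratio of DT to PBS was 0.06 (SE 0.05, adjusted p by limma = 0.693). Lrp6 (chromosome 6, 134446476 to 134566965 on the minus strand), the co-receptor, had 1667.9, 1487.8, 1520.8, 1980.7 and 1499.4 normalized counts across PBS 1 to PBS 5, and 1374.1, 1521.2 and 1582.4 as the lowest, median and highest after DT. The log2 fold change of Lrp6 was -0.11 (SE 0.07, adjusted p by limma = 0.594), and it was -0.04 without PBS 4, the highest mouse for this gene.

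Fzd10 had 806.8, 795.9, 795.6, 838.7 and 769.1 normalized counts across PBS 1 to PBS 5, and 850.5, 955.5 and 1030.5 as the lowest, median and highest after DT. Every DT-treated mouse was above every PBS-treated mouse. The log2 ratio of DT to PBS was 0.26 (SE 0.05, adjusted p by limma = 0.0782). The call is close to the threshold. It was kept in 3 of 11 fits without a single mouse (without DT 1, PBS 4 or PBS 5), although the log2 fold change stayed between 0.23 and 0.29. Of the 16 receptor genes listed, 1 was called higher and 0 lower, and of the 15 with mean counts of 10 or more 10 had a positive and 5 a negative log2 fold change. Fzd8, a further Frizzled receptor, was at 297 ± 21.1 normalized counts (SD, n = 5) in the PBS group and 320 ± 10.7 (SD, n = 6) in the DT group, with a limma adjusted p of 0.532.

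The genes that tune the receptors did not pass the threshold by limma over all 11 mice, and among those with mean counts of 10 or more 1 of the R-spondin and turnover genes and 1 of the secreted inhibitors had an unadjusted p under 0.05. Lgr5, an R-spondin receptor and target gene, had an unadjusted limma p of 0.0239 (adjusted p = 0.344) at 4.0 ± 2.33 normalized counts (SD, n = 5) in the PBS group and 1.26 ± 0.767 (SD, n = 6) in the DT group, where a few reads decide the value. Lgr4, a receptor for R-spondins that keeps Frizzled proteins on the cell surface, was at 2100 ± 257 normalized counts (SD, n = 5) in the PBS group and 2440 ± 145 (SD, n = 6) in the DT group, a log2 ratio of 0.22 (SE 0.07, adjusted p by limma = 0.237). Without PBS 4, which had the highest Lgr4 of the PBS-treated mice (2448.7 normalized counts), the log2 ratio of Lgr4 was 0.28 (adjusted p by limma = 0.0782), and without PBS 3 and PBS 5 it was 0.13 (adjusted p by limma = 0.274). Znrf3, a ubiquitin ligase that removes Frizzled proteins, had a log2 fold change of -0.06 (limma adjusted p = 0.837). On the list, the role of secreted inhibitors also takes in Kremen1 and Kremen2, which encode receptors for Dickkopf proteins and are not secreted. Of this role, Dkk3 was at 315 ± 23.2 and 349 ± 24.7 normalized counts (limma adjusted p = 0.435). Kremen2 was low at 26.1 ± 7.58 and 22.8 ± 5.87 normalized counts (limma adjusted p = 0.822).

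In the cytoplasm, the values of Ctnnb1 and Axin2 overlapped between the groups, and neither gene passed the test. Ctnnb1 (chromosome 9, 120929216 to 120960507 on the plus strand), which encodes β-catenin, had 16023.6, 15298.6, 16632.0, 15761.5 and 15229.7 normalized counts across PBS 1 to PBS 5, and 15229.4, 16159.7 and 16943.7 as the lowest, median and highest after DT. Its log2 ratio of DT to PBS was 0.04 (SE 0.05, adjusted p by limma = 0.826), and its coefficients of variation within the groups were 3.64% and 3.74%. β-catenin also joins cadherins at cell junctions, and its activity is set largely at the protein level, which these libraries do not measure. Axin2 (chromosome 11, 108920349 to 108950783 on the plus strand), the feedback scaffold, had 224.0, 202.1, 224.3, 241.3 and 234.0 normalized counts across PBS 1 to PBS 5, and 193.7, 231.3 and 265.2 as the lowest, median and highest after DT. DT 1 was below and DT 6 above all PBS-treated mice, and the log2 ratio of DT to PBS was 0.02 (SE 0.08, adjusted p by limma = 0.946). The sign of this value turned to -0.02 without DT 6.

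In the destruction complex and its partners, 17 genes were listed, all with values, and 0 were called by limma, with 2 at an unadjusted p under 0.05. The log2 fold change was positive for 6 and negative for 11, with a median of -0.062. Axin1, the constitutive scaffold, was at 1330 ± 78.7 normalized counts (SD, n = 5) in the PBS group and 1450 ± 41.9 (SD, n = 6) in the DT group, a log2 ratio of 0.13 (SE 0.05, adjusted p by limma = 0.318). Csnk1a1, the kinase that primes β-catenin for degradation, was between 12677.9 and 13820.5 normalized counts after PBS and between 13900.4 and 14707.7 after DT. The groups did not overlap for Csnk1a1, but the difference was small, at 0.12 on the log2 scale (SE 0.05, adjusted p by limma = 0.33).

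Of the members in the nuclear complex, Tcf7l1, Tcf7l2, Bcl9 and Bcl9l had a lower mean after DT, with Bcl9 past the threshold, and Ctnnb1 had a higher mean. Tcf7l1 (chromosome 6, 72626378 to 72789254 on the minus strand) encodes a TCF that mostly represses targets and is known from epithelial stem cells. It had 810.2, 931.0, 966.6, 1040.0 and 855.1 normalized counts across PBS 1 to PBS 5, and 711.8, 818.1 and 952.9 as the lowest, median and highest after DT. Its log2 ratio of DT to PBS was -0.16 (SE 0.08, adjusted p by limma = 0.454). Tcf7l2 (chromosome 19, 55741820 to 55933654 on the plus strand), a TCF that activates or represses with its partners, had 399.4, 373.2, 338.0, 450.8 and 273.9 normalized counts across PBS 1 to PBS 5, and 293.4, 301.2 and 350.6 as the lowest, median and highest after DT. PBS 5 was below every DT-treated mouse for Tcf7l2, PBS 3 was above all of them but DT 2, and PBS 1, PBS 2 and PBS 4 were above all of them. The log2 ratio of DT to PBS was -0.23 (SE 0.10, adjusted p by limma = 0.398), and the PBS-treated mice varied more (coefficient of variation 18.09%) than the DT-treated mice (6.98%).

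Bcl9 (chromosome 3, 97203662 to 97297917 on the minus strand) encodes the adaptor between β-catenin and Pygopus. It had 535.2, 556.8, 511.0, 530.9 and 509.9 normalized counts across PBS 1 to PBS 5, and 411.5, 394.5, 420.1, 390.8, 392.5 and 436.7 in DT 1 to DT 6. The lowest PBS-treated mouse was PBS 5 and the highest DT-treated mouse was DT 6, and a gap separated them. The means were 528.8 ± 19.4 (SD, n = 5) and 407.7 ± 18.4 (SD, n = 6), a log2 ratio of -0.38 (SE 0.06, adjusted p by limma = 0.00832). It stayed between -0.40 and -0.36 when each mouse in turn was left out, and passed the threshold in all 11. PBS 3 and PBS 5, which stood apart in other genes, had the lowest Bcl9 of the PBS-treated mice, and without them the log2 fold change was -0.41 (limma adjusted p = 0.00536).

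Bcl9l (chromosome 9, 44482825 to 44511896 on the plus strand), the paralog of Bcl9, encodes a protein with the same place in the complex, and it was the member next to the threshold on the other side. It had 3927.5, 3947.3, 3673.2, 4126.1 and 3342.9 normalized counts across PBS 1 to PBS 5, and 2947.0, 3176.5 and 3616.8 as the lowest, median and highest after DT. All 6 DT-treated mice were below the PBS mean, and 2 of them were inside the PBS range, above PBS 5. The log2 ratio of DT to PBS was -0.23 (SE 0.07, adjusted p by limma = 0.214). Without PBS 5 it was -0.27 for Bcl9l (limma adjusted p = 0.0688) and -0.33 for Tcf7l2 (limma adjusted p = 0.09).

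When PBS 3 and PBS 5 were both left out, 3 of the 10 genes were called, all lower after DT, at -0.41 for Bcl9, -0.30 for Bcl9l (limma adjusted p = 0.0172) and -0.40 for Tcf7l2 (limma adjusted p = 0.0129). That fit called 10.3% of all genes, so that the count of calls is far higher throughout. Of the pathway list it called 18 of the 92 genes with values (19.6%), with 5 higher and 13 lower. Of these 92 genes 84 had mean counts of 10 or more, against 13477 of all 19170 genes. The shares are therefore over unlike sets, and the share among genes of like level was not counted. The 5 higher were the ligands Wnt5b (0.55) and Wnt7b (0.20), the receptor Fzd10 (0.23), the scaffold Axin1 (0.18) and the target gene Bambi (0.30), as log2 ratios of DT to PBS. The lower genes outside the members were Lgr5 (-1.63), the co-repressor Tle2 (-0.82), Porcn (-0.42), Ep300 (-0.25), Apc (-0.21), Gsk3b (-0.18), the Dishevelled genes Dvl1 (-0.21) and Dvl3 (-0.18), Znrf3 (-0.20) and the target gene Cd44 (-0.19). Genes of the destruction complex and its partners were thus called in both directions. No other member was called by this fit. These mice were singled out by their expression as a whole, and the fit is given as a description of how far they matter.

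**Figure D2:**
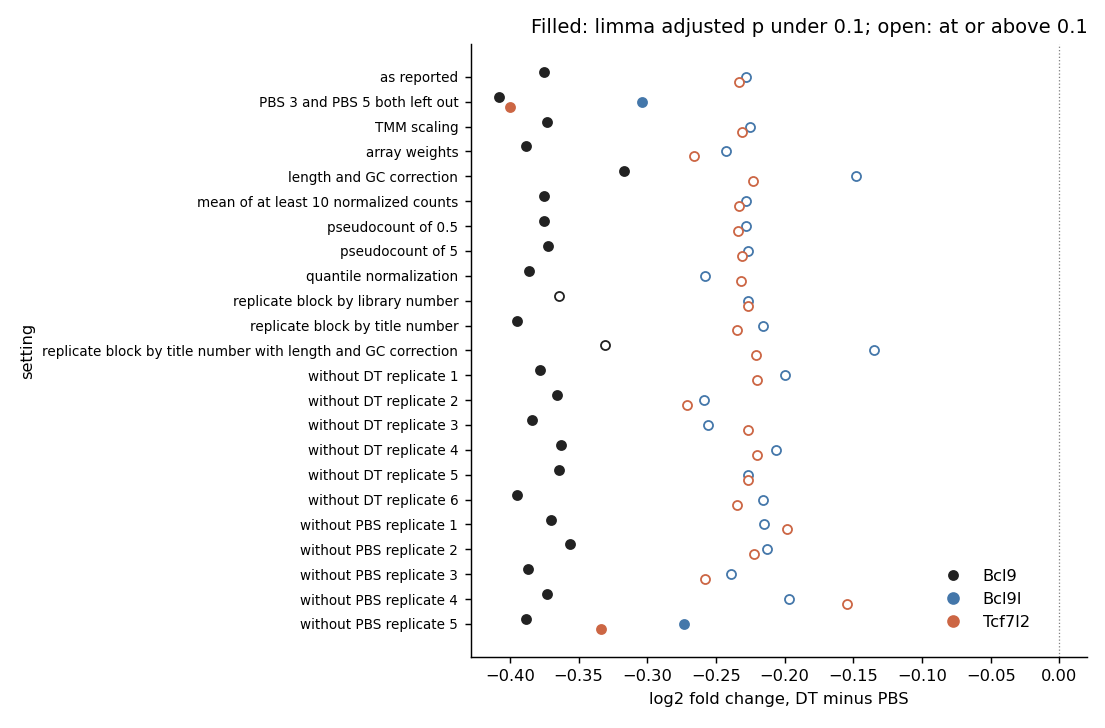
Log2 fold change (horizontal axis) of Bcl9, Bcl9l and Tcf7l2 under each setting (vertical axis), with filled points for a limma adjusted p under 0.1 and open points otherwise. Bcl9 stays between -0.41 and -0.32 and is open in 2 fits with a replicate block, while Bcl9l and Tcf7l2 are filled only without PBS 5 or without both PBS 3 and PBS 5.

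The 9 listed genes of the nuclear complex had 1 call, Bcl9, with 3 positive and 6 negative log2 fold changes. The Pygopus genes that BCL9 proteins bind were level between the groups, with log2 fold changes of 0.02 for Pygo2 (limma adjusted p = 0.919) and -0.05 for Pygo1 (limma adjusted p = 0.89). Lef1, a TCF/LEF factor, was low at 35.0 ± 7.98 normalized counts (SD, n = 5) in the PBS group and 44.2 ± 7.22 (SD, n = 6) in the DT group (limma adjusted p = 0.495). Among 10 nuclear co-regulators 0 were called by limma, with 3 at an unadjusted p under 0.05. The co-activator Ep300 was at 2220 ± 230 normalized counts after PBS and 1920 ± 110 after DT (limma adjusted p = 0.236), and the co-repressor Tle4 at 816 ± 117 and 967 ± 42.8 (limma adjusted p = 0.223).

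Of 20 feedback and target genes on the list, 18 had values and 0 were called by limma. Of the 15 with mean counts of 10 or more, 9 had a positive and 6 a negative log2 fold change, with a median of 0.04, and 3 had an unadjusted p under 0.05. Bambi, a decoy receptor of the BMP and TGF-β pathways that β-catenin can induce, was at 335 ± 30.3 normalized counts (SD, n = 5) in the PBS group and 390 ± 43.2 (SD, n = 6) in the DT group (limma adjusted p = 0.322). Fosl1, a member of the AP-1 family, was at 65.6 ± 10.4 and 104 ± 42.2 normalized counts (limma adjusted p = 0.261), and DT 6 alone had 188.1. Myc and Ccnd1, which drive growth and the cell cycle, had log2 fold changes of 0.10 and -0.06 (limma adjusted p = 0.55 and 0.838). Over the whole list of 108 genes, 16 had no value and 84 had mean counts of 10 or more. Of these 84 genes, the log2 fold change was positive for 44 and negative for 40, with a median of 0.014. Apart from the 10 genes, 1 of 82 with values was called.

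**Figure D3:**
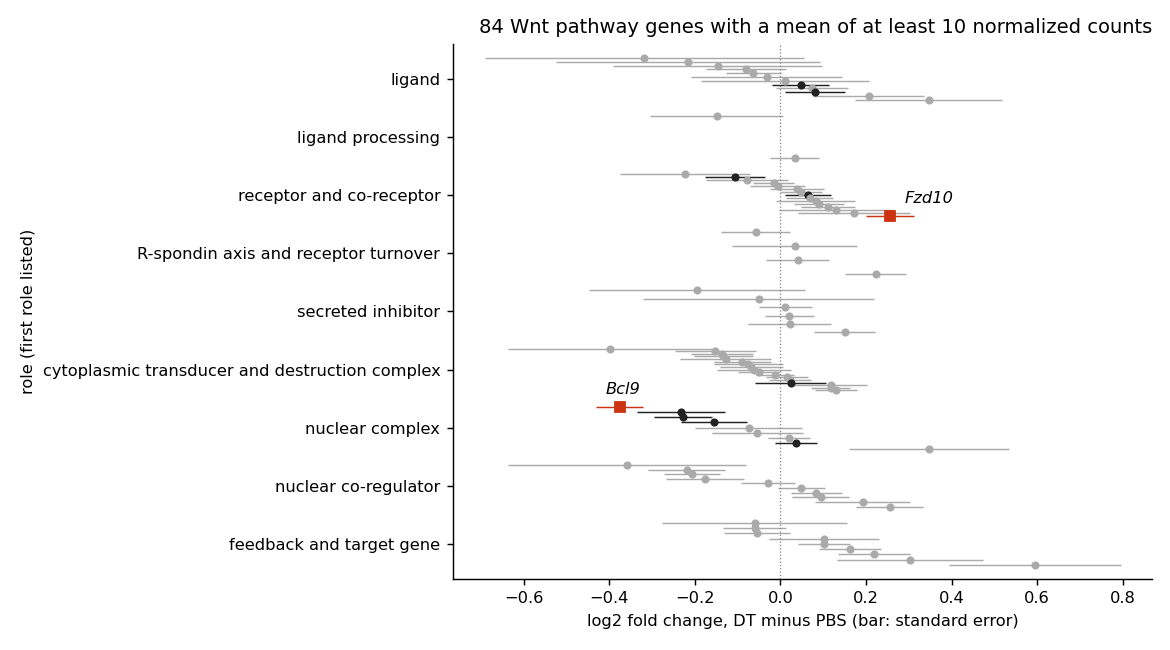
Log2 fold change with its standard error (horizontal axis) for the 84 Wnt pathway genes with mean counts of 10 or more, grouped by the first role listed for each (vertical axis). Black points are the 10 genes, grey points the other genes and red squares those with a limma adjusted p under 0.1, which are Bcl9 to the left and Fzd10 to the right of 0.

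Immediate early genes, which respond within minutes to signals and to handling of tissue, moved with the groups. Of 10 such genes, 9 were called higher after DT. Their summed level was 26200 to 66300 normalized counts after PBS and 70400 to 112000 after DT, without overlap. The two-sided exact permutation test gave p = 0.00433 (adjusted p = 0.052 over the 12 marker lists). These lists were chosen with earlier results of these data known, so their p-values describe the lists and test nothing. The part of the immediate early genes in the difference in Bcl9 was not tested. PBS 4 had the highest Atf3 of the PBS-treated mice, at 731.3 normalized counts against 107.0 to 169.7 in the others. This was still below the DT-treated mice, at 751.1 to 2679.6. For Fosb and Egr1, however, PBS 4 lay inside the DT range. Fosb was 5983.0 normalized counts in PBS 4 and 5080.5 to 10460.9 after DT. Egr1 was 10359.5 in PBS 4 and 9449.7 to 17568.5 after DT. The other listed immediate early genes were lower in PBS 4 than in every DT-treated mouse. The Bcl9 of PBS 4 was 530.9 normalized counts. A single mouse cannot decide the part of these genes in Bcl9. The summed suprabasal markers were 2380000 to 2420000 normalized counts after PBS and 2380000 to 2610000 after DT (two-sided exact permutation test, p = 0.039, adjusted p = 0.234), and the basal markers 296000 to 378000 and 319000 to 363000 (exact p = 0.554). For the other lists, from junctional epithelium and Langerhans cells to fibroblasts, leukocytes and Schwann cells, the adjusted p of the exact permutation test lay between 0.312 and 0.866, and 0 of their genes were called by limma.

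Levels of different genes were compared per kilobase of the longest transcript in the annotation, as means over 11 mice. Ctnnb1 was highest at 4420 ± 166 normalized counts per kilobase (SD, n = 11), followed by Wnt4 at 1360 ± 106. Bcl9l was at 517 ± 59.3 and Fzd6 at 477 ± 28.1, and their ranges over the mice overlapped. Tcf7l1 at 286 ± 31.3 and Wnt10a at 263 ± 21.2 overlapped as well, and Lrp6 followed at 167 ± 16.7. The lowest were Tcf7l2 at 90.2 ± 14.6 and Bcl9 at 75.8 ± 10.8, which overlapped, and Axin2 at 53.4 ± 4.43. Bcl9l therefore stood well above its paralog Bcl9 in every mouse. With the union of all exons as the length, Wnt10a came before Tcf7l1, and Tcf7l2 fell to the last place at 38.2. This order assumes that reads cover the whole transcript. The labels name a stranded kit that does so, whereas the methods describe trimming by a guide for libraries of transcript 3′ ends, and the coverage along transcripts was not tested.

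**Figure D4:**
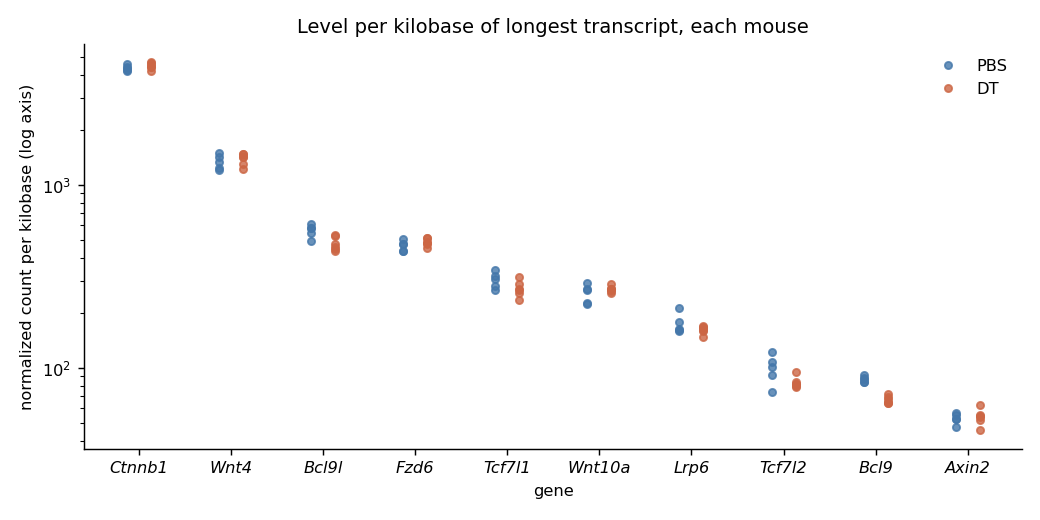
Normalized counts per kilobase of the longest transcript (vertical log axis) for the 10 genes in order of their mean, with a point for each PBS-treated and DT-treated mouse. Ctnnb1 lies highest at a mean of 4420 and Axin2 lowest at 53.4, and Bcl9 is the gene whose groups separate.

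Members were then compared with each other across mice after the mean of each group was subtracted, which uses only the spread within groups. Over the 45 pairs, 4 passed a Benjamini-Hochberg adjusted p of 0.05 by Pearson's r and 0 by Spearman's rho, with 8 at an unadjusted Pearson p under 0.05. Wnt4 and Wnt10a rose and fell together (r = 0.83, permutation p = 0.0013, adjusted 0.0301, and rho = 0.75, permutation p = 0.0113, adjusted 0.127, n = 11). The same held for Bcl9l with Fzd6 (r = 0.82, permutation p = 0.00268, adjusted 0.0301, and rho = 0.79, permutation p = 0.00561, adjusted 0.127) and Bcl9l with Tcf7l2 (r = 0.78, permutation p = 0.00241, adjusted 0.0301, and rho = 0.75, permutation p = 0.0103, adjusted 0.127). Wnt10a and Lrp6 went in opposite directions (r = -0.81, permutation p = 0.00152, adjusted 0.0301, and rho = -0.77, permutation p = 0.00744, adjusted 0.127).

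Because PBS 3 and PBS 5 stand apart, the same pairs were looked at without them and in DT-treated mice alone. Without these mice r was 0.78 for Wnt4 with Wnt10a, -0.78 for Wnt10a with Lrp6, 0.74 for Bcl9l with Fzd6 and 0.62 for Bcl9l with Tcf7l2. Within the 6 DT-treated mice r was 0.68, -0.75, 0.74 and 0.69 in the same order, and none of these passed an exact permutation test (two-sided p = 0.133, 0.156, 0.0806 and 0.139). Leaving out the 2 mice farthest from the median of the first gene gave 0.79, -0.93, 0.87 and 0.62. After correction for gene length and GC content r was 0.74, -0.51, 0.71 and 0.59, so the opposite course of Wnt10a and Lrp6 was the pair most affected by it. Bcl9 was in none of the 4 pairs, and its r with Bcl9l was 0.24 (permutation p = 0.477, adjusted p = 0.782).

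**Figure D5:**
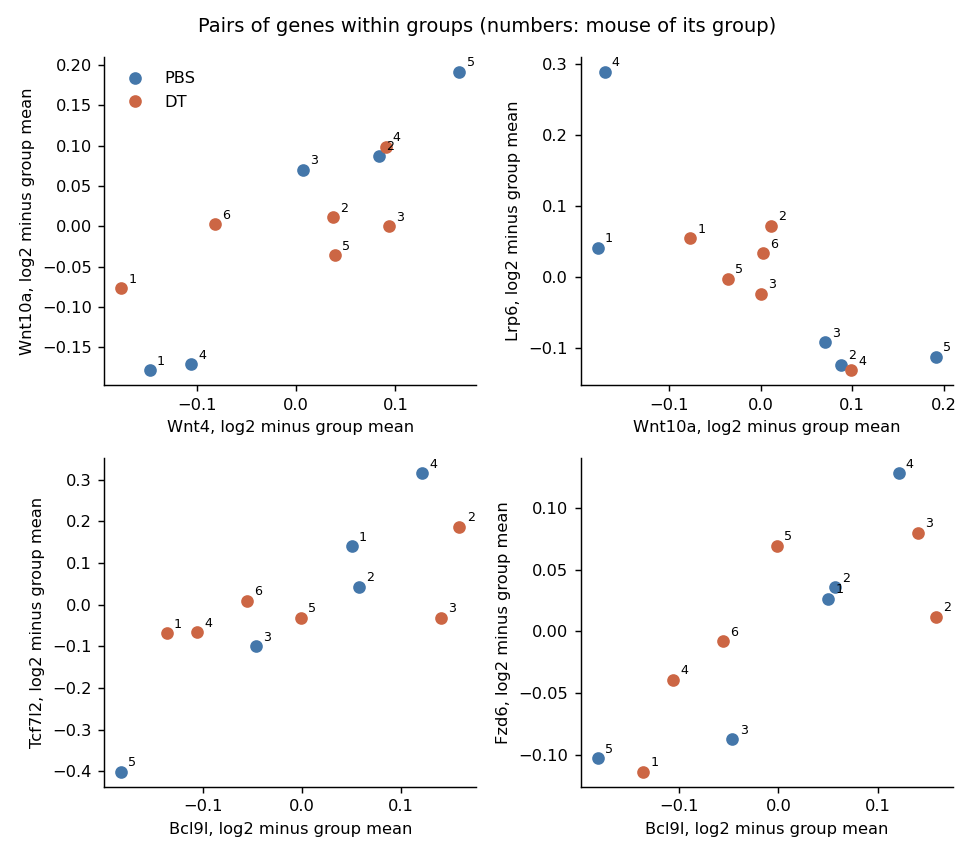
Log2(normalized count + 1) minus the mean of the group, for the 4 pairs of genes that passed by Pearson's r, with a numbered point for each mouse (blue PBS, orange DT). PBS 5 lies at an end in the panels of Wnt4 with Wnt10a and of Bcl9l, and PBS 4 lies apart at the top left for Wnt10a with Lrp6.

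The genes whose values followed Bcl9 most closely within groups, among those with mean counts of 10 or more, were Arhgef39 (r = 0.91 over 11 mice), Ogfrl1 and Pacsin1 (both 0.89), Stag3 (0.88) and Pip5k1b (0.87). For Axin2 they were Polk (0.96), Ribc1 (0.91), Rabgap1 (0.90), Pcdhb4 (0.88) and Lmbrd1 (0.87). These values are the highest of 13477 genes over few mice, with all genes read from the same libraries, and they are given as a description. None of these 10 genes passed the threshold between the groups, and the limma adjusted p was 0.668 for Arhgef39 and 0.997 for Polk.

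Annotated genes overlap 7 of the 10 members. The largest overlapping partner was Ulk4, on the strand opposite Ctnnb1, with a mean of 40.1 normalized counts against 16015.4 for Ctnnb1. Bcl9 overlaps 2 predicted transcripts that have no value in the table. The kit keeps the strand, but the strand setting of the authors' counting is not given in the sources used here, so reads of such partners cannot be told apart with certainty.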

How the data were processed

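RNA of gingival epithelium from 5 PBS-treated and 6 DT-treated mice was sequenced from stranded mRNA libraries. The authors trimmed and aligned the reads, counted them per gene, dropped genes whose counts summed to under 10, and deposited normalized counts, that is, counts divided by DESeq2 size factors. The authors' processing notes name cutadapt 2.10, TopHat2 2.1.1, HTSeq 2.01, DESeq2 1.36.0 and GRCm39, whereas the methods name GRCm38 and older versions. Of 55414 genes listed, 19170 had values. The 10 genes, the pathway list and the marker lists were chosen with earlier results of these data known.

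Groups were compared with limma 3.58.1 in R 4.3.3 (intensity trend, no covariate) on log2(normalized count + 1), which understates changes of low genes, with Benjamini-Hochberg adjustment over all 19170 genes and a threshold of 0.1. The fit was tested on simulated data. Named genes were the 10 members, pathway genes past the threshold, the 2 smallest p of each role (mean counts of 10 or more), and the 5 closest to Bcl9 and to Axin2. Those named for the fit without PBS 3 and PBS 5, and Lgr5, Pygo1, Pygo2, Lef1, Myc and Ccnd1, were chosen after their values were seen. Correlations used 100000 permutations. Positions came from GENCODE M21 on GRCm38, matched for 99.7% of genes. Alternatives were pseudocounts of 0.5 and 5, a minimum mean of 10, TMM scaling, quantile normalization, array weights, a length and GC correction (loess, span 0.3), replicate blocks and leaving out mice. Tests on counts with edgeR or DESeq2 were planned but not run. The deposited values are normalized, and the whole steps seen among low values were not accepted as recovered reads. P-values set a difference or a correlation against the spread between these mice.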

Additional observations from a re-analysis of the deposited data

Results flagged for a closer look

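Over the 10 members and the named pathway genes, 52 groups of 5 or 6 mice were examined for a mouse far from the others, and 4 were found, where chance gives about 1 in 20 groups. Among the members, Tcf7l2 in DT 2 was 350.6 normalized counts, above the other DT-treated mice by a gap of 0.714 of the group's range. Its log2 fold change was -0.27 without DT 2 and -0.23 with it. Fosl1 in DT 6 was 188.1 normalized counts, with a gap of 0.765 of the range, and its log2 fold change was 0.41 without this mouse and 0.60 with it. Dkk3 in PBS 1 was 355.3 normalized counts, with a gap of 0.771, and its log2 fold change was 0.20 without this mouse and 0.15 with it. Kremen2 in DT 3 was 11.1 normalized counts, with a gap of 0.796, and its log2 fold change was -0.01 without this mouse and -0.20 with it.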

How the results depend on the processing

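Bcl9 kept its direction in all 22 alternatives and passed the threshold in 20, between -0.41 and -0.32 on the log2 scale (between -0.395 and -0.356 without single mice). The limma adjusted p ranged from 0.00388 to 0.214. No source used here says that the replicate numbers pair the mice. Same-numbered mice had correlations of their deviations between -0.233 and 0.324. Mice with different numbers were not compared in this way, so these values cannot decide whether the numbers pair the mice. With a replicate block by title number, 35 genes (24 higher), 1 of the pathway list and 1 member were called, and Bcl9 was -0.395. With that block and the length and GC correction, 39 genes, 0 of the list and 0 members were called, and Bcl9 was -0.331 (adjusted p = 0.13). With a replicate block by library number, 0 genes, 0 of the list and 0 members were called, and Bcl9 was -0.364 (adjusted p = 0.214).

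Over all genes, 107 were called (60 higher), and 189 (110 higher) with array weights, 186 (140 higher) with the length and GC correction, 1967 (922 higher) without PBS 3 and PBS 5, and 27 (without DT 5) to 259 (without PBS 5) without single mice. Of the pathway list, 2 genes were called, and 18 without PBS 3 and PBS 5, 3 with the length and GC correction and 1 to 4 without single mice, with 4 only without PBS 5. Members called were 1, and 3 without PBS 3 and PBS 5 and 1 to 3 without single mice, with 3 only without PBS 5. Signs turned in values that passed no test: Ctnnb1 to -0.016 with quantile normalization, Axin2 to -0.019 with the block by title number, and to -0.019 without DT 6 and -0.014 without PBS 2 (range to 0.071 without single mice), Wls to -0.004 without PBS 3 and PBS 5 and -0.018 without PBS 5 (range to 0.057 without single mice), Kremen2 from -0.195 to 0.078 without PBS 3 and PBS 5, and Znrf3 to 0.005 without PBS 4 (range from -0.123 without single mice). The cause was not tested. Fzd10 passed in 11 of 22 alternatives. Tests with edgeR and DESeq2 were not run. Genes with few counts, such as Kremen2, are measured with a large counting error.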
